A study of Mus musculus with 18 samples.

Results

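The cholesterol synthesis and SREBP2 pathway was followed as 27 mouse genes, chosen by symbol from textbook knowledge of the pathway, among the 45706 genes of the authors' raw count table. Each of the 27 had 1 row in the table, and all 27 passed the filter on low counts that left 10438 genes for testing. By role they were 8 enzymes of the mevalonate arm, 11 enzymes of the sterol arm, 6 members of the control circuit and 2 genes of sterol transport or binding. The list does not hold every enzyme of the pathway.

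Poly(A) RNA was sequenced from macrophages grown from the bone marrow of C57BL/6 mice in medium with 30% L929-cell conditioned medium, which supplies the macrophage growth factor. The genotypes were WT (wild-type) and RelA-TA-KI, which by its name is a knock-in at Rela, encoding a subunit of NF-kB; the labels say no more about it. Both were left unstimulated or were given LPS, a bacterial cell wall component sensed by TLR4, at 100 ng/ml, or the cytokine TNF at 10 ng/ml, on day 7 of culture, and were collected after 0.5, 1, 3 or 8 h. Each of the 9 conditions had 1 library per genotype, so there were 18 libraries and no replicates within a condition, and every sample carried the age label 12 days. The labels name no separate animals or cultures, so a p-value measures consistency over these libraries, and genotype cannot be told apart from culture.

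Cholesterol is made from acetyl-CoA through mevalonate and farnesyl diphosphate, a branch point to isoprenoids, and then through squalene and lanosterol. When sterols in the endoplasmic reticulum are scarce, Scap escorts the transcription factor SREBP2 (gene Srebf2) to the Golgi, where the proteases encoded by Mbtps1 and Mbtps2 release its active part. When sterols are plentiful, the Insig proteins hold Scap back. Activated macrophages are known to change their sterol synthesis, and oxysterols made by such cells restrain SREBP2.

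SREBP2 binds sterol regulatory elements, usually beside a CCAAT box that binds NF-Y. In the 250 bases before a gene's start in RefSeq (GRCm38.p6), 23 of the 27 members had an entry. Stard4, Fdft1, Sqle and Fdps had none. The letters TCACCCCAC, searched on both strands with at most 1 mismatch, occurred before 5 of the 23 (Hmgcs1, Hsd17b7, Srebf2, Acat2 and Nsdhl) and before 9.69% of all 27025 genes. CCAAT, on either strand, occurred before 19 of the 23 and before 37.5% of all genes, and both motifs before 4 of the 23 and 3.12% of all genes. GGGCGG, the letters of a GC box, occurred before 20 of the 23 and 35.4% of all genes. All genes here means every gene with an entry, whether or not it was tested. The shares among the 10438 tested genes were not worked out. A match is a description of these letters and not evidence of binding. Except for Mvd, the stretches below are shown because they hold element-like letters, exact in Hmgcs1 and with 1 mismatch in Srebf2, Hsd17b7 and Acat2. Capitals mark the element-like letters and CCAAT (or ATTGG, its reverse complement), and Mvd is added as a member with CCAAT but no element-like letters. The stretch of Nsdhl is not printed because it overlaps an exon in the count table. Sequences are from RefSeq, read from 5′ to 3′ on the gene's strand.
Hmgcs1 (chr13:119690104-119690320, plus strand): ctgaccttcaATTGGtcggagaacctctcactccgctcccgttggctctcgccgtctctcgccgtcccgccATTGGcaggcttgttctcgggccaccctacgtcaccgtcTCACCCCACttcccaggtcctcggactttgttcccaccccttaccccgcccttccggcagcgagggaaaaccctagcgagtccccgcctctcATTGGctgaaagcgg
Srebf2 (chr15:82147097-82147148, plus strand): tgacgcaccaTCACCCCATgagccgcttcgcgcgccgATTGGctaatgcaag
Hsd17b7 (chr1:169969264-169969380, minus strand): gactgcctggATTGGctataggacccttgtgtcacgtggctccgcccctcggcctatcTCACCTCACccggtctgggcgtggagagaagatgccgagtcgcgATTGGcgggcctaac
Acat2 (chr17:12960889-12960917, minus strand): tggatcctccACACCCCACcctaacccga
Mvd (chr8:122443435-122443492, minus strand): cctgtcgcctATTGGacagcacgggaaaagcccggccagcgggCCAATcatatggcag

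Library totals ranged from 4663650 to 6721917 counts, and each library detected between 13774 and 15261 genes. CPM is the count of a gene scaled to the library's total after TMM scaling, which aligns the bulk of genes between libraries. The TMM factors fell to between 0.568 and 0.648 at 8 h of LPS, against about 1.2 in unstimulated cells, so directions after LPS depend on this scaling, and the values with plain library totals are given beside the counts they move. Macrophage markers were high in every library (9 of 9 tested, summed CPM 12810 to 23740), while dendritic (at most 8.86 CPM), erythroid (at most 6.59 CPM) and mast cell markers (at most 0.905 CPM, Mcpt4 at 0) stayed low. Lymphocyte markers summed to 50.1 to 200.4 CPM, with Ncr1 at 0 and only Il7r high enough to test.

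Per kilobase of exon, Hmgcs1, the synthase that makes HMG-CoA, and Insig1, the retention factor, had the highest levels of the 27 genes, at a mean of 175.5 and 127.6 CPM per kb over 18 libraries. Cyp51 (65.7), Srebf2 (64.3) and Sc5d (59.99 CPM per kb) came next. The isomerase Idi1 (1.51 CPM per kb, 8 to 44 reads per library) and the farnesyl diphosphate synthase Fdps (5.1 CPM per kb) were lowest. Levels also differed in how far they ranged. The highest library stood 15.4-fold above the lowest for Mvd, 12.8-fold for Insig1 and 8.3-fold for Stard4, but only 1.29-fold for Ebp. The lowest of the 18 libraries was the knock-in one at 8 h of LPS for 13 members and the wild-type one at 8 h of LPS for another 9. The share of all genes lowest in these libraries was not worked out, and 34.9% of all genes were called lower at 8 h of LPS. Some levels are uncertain because reads can be shared with other genes. Of the 50-base stretches of Acat2, 39.1% occur in transcripts of other genes, as do 25.3% for Idi1, 20.8% for Tmem97 and 11.6% for Hmgcs1. None of these overlaps another gene. Some other members share stretches with overlapping genes. On the same strand Yy2 overlaps 28.4% of the exon length of Mbtps2 and Gm43738 26.7% of that of Fdps. On the other strand Ctsb overlaps 26.8% of Fdft1 and 5830462I19Rik 13.2% of Scap. The strand setting of the authors' counting is not given in the sources used here.

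**Figure D1:**
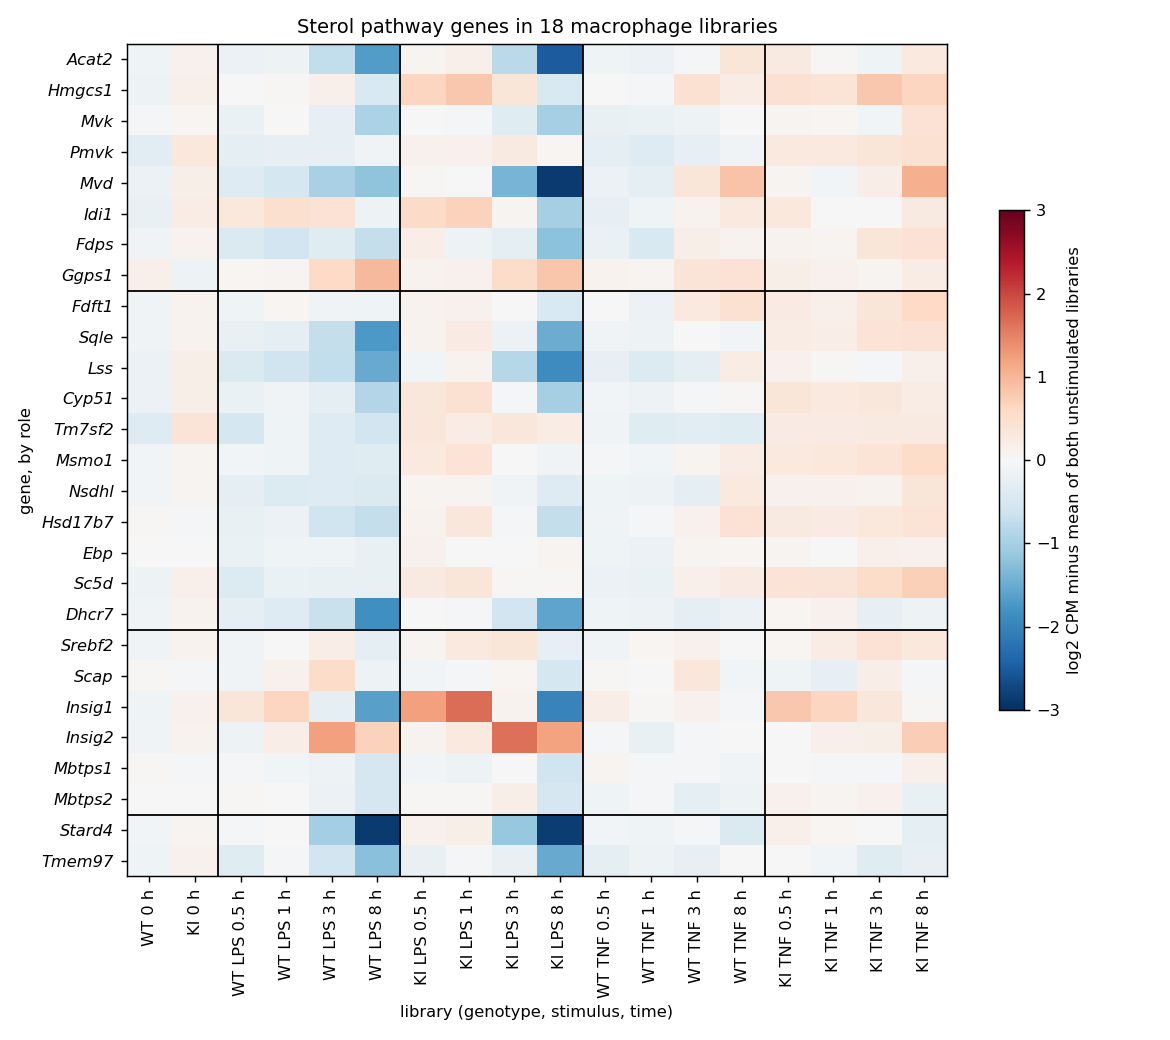
Log2 CPM of the 27 genes (rows, by role, separated by lines) in 18 libraries (columns), each minus the mean of both unstimulated libraries of that gene. At 8 h of LPS the strongest decreases are those of Stard4 in both genotypes and of Mvd and Acat2 in knock-in cells. The strongest increases are those of Insig1 at 1 h and of Insig2 at 3 h of LPS, both in knock-in cells.

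After LPS most of the pathway fell, and at 8 h 23 of 27 members in wild-type and 24 in knock-in cells were below their own unstimulated level. The members' median log2 change there was -0.53 in wild-type and -0.61 in knock-in cells, against -0.03 and -0.05 over all genes. In the F test over the 4 LPS times, the direction was read at the time of the largest change. So counted, 18 of the 27 genes were lower and 4 (Ggps1, Idi1, Insig2 and Srebf2) were higher. The other 5 (Pmvk, Fdft1, Tm7sf2, Ebp and Sc5d) were not called. Of all genes tested, 37.9% were called lower and 36.4% higher by the same test. Without the LPS 8 h pair 7 members were lower and 7 higher, beside 2540 lower and 2695 higher of 10468 genes, so these counts were near the background. The next values are again with all pairs. The members' median log2 fold change at those times was -0.51, against -0.19 over all genes. When plain library totals replaced the TMM factors 25 members were lower and 1 was higher, beside 7590 lower and 1712 higher of the 10438 genes. Higher calls went from 49% to 18.4% of all calls in either direction. In such bulk samples fewer cells of a type and less RNA per cell cannot be told apart.

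The fall came between 1 and 8 h. At 0.5 h no member was called in either direction by edgeR (2 had an unadjusted p under 0.05), and at 1 h only Insig1 was, upward, where 4.52% of all genes were called higher. At 3 h 6 members were lower, against 23.9% of all genes, and 4 were higher, against 25.3%. The lower count at 3 h was thus near the background. The members' median log2 fold change there was -0.09, and that of all genes -0.02. At 8 h 19 members were lower, against 34.9% of all genes, and 2 were higher, against 34.5%. The members' median log2 fold change at 8 h was -0.52, and that of all genes -0.04. From 3 to 8 h 17 members fell further, against 25.9% of all genes, and 0 rose.

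The sterol transporter Stard4, which carries cholesterol between membranes, changed most. Its level in wild-type cells was 193 CPM before stimulation and 198, 203, 100.4 and 28.0 CPM at 0.5, 1, 3 and 8 h of LPS. In knock-in cells it was 218 CPM and 223, 232, 92.8 and 28.3 CPM at the same times. Both genotypes held their unstimulated level for 1 h, stood at about 100 CPM or less at 3 h and were lowest at 8 h (log2 fold change -2.86 ± 0.10, adjusted p = 1.2e-10).

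In the mevalonate arm 5 of 8 genes were lower and 2 higher over the LPS times. Acat2, whose product joins acetyl-CoA units, stood at 60.0 CPM (wild-type) and 71.9 CPM (knock-in) before stimulation and at 20.4 and 11.6 CPM at 8 h (log2 fold change -2.04 ± 0.21, adjusted p = 2.1e-06). Mvd, the decarboxylase that yields isopentenyl diphosphate, went from 80.4 CPM to 69.1, 62.6, 46.2 and 39.2 CPM at the 4 times in wild-type cells. In knock-in cells Mvd went from 101 CPM to 92.0, 90.3, 34.4 and 12.2 CPM. The fall of Mvd was thus present in both genotypes from 3 h, with the lowest of all 18 libraries in the knock-in at 8 h (log2 fold change -1.82 ± 0.39, adjusted p = 0.0014). Hmgcs1 behaved differently: its wild-type level was 420.4 CPM and then 468, 479, 521 and 340.5 CPM, and its knock-in level 524 CPM and then 737, 824, 604 and 343 CPM. It was below the unstimulated level only at 8 h (log2 fold change -0.45 ± 0.14, adjusted p = 0.014), and its values at 0.5 and 1 h, all above it, were not called (log2 fold change 0.43 ± 0.14 at 1 h). The kinase Mvk (-0.97 ± 0.15 on the log2 scale) and Fdps (-0.96 ± 0.21) were lower at 8 h.

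Ggps1, which makes the geranylgeranyl diphosphate used to anchor small GTPases, rose where its neighbours fell. Its level went from 15.7 to 28.0 CPM in wild-type and from 12.9 to 25.4 CPM in knock-in cells at 8 h (log2 fold change 0.89 ± 0.14, adjusted p = 7.0e-05). With library totals the Ggps1 change was -0.07 on the log2 scale, so its direction rests on the scaling. Idi1 was called higher by the F test (0.59 ± 0.25 on the log2 scale at 1 h, on 44 reads or fewer per library), a call lost with DESeq2 and without the 8 h pair of either stimulus. The phosphomevalonate kinase Pmvk stayed between 26.9 and 48.7 CPM in all 18 libraries.

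In the sterol arm 7 of 11 genes were lower after LPS and 0 higher. Sqle, the squalene epoxidase, stood at 269.7 CPM in unstimulated wild-type cells and at 246, 238, 175 and 86.7 CPM over the LPS times. In knock-in cells it stood at 307 CPM and at 308, 344, 256 and 102 CPM. Both genotypes were below their unstimulated level at 3 h and lowest at 8 h (log2 fold change -1.62 ± 0.10, adjusted p = 1.5e-08). Lss, the cyclase that forms lanosterol, fell from 147 to 58.0 CPM in wild-type and from 188 to 44.7 CPM in knock-in cells (log2 fold change -1.69 ± 0.21, adjusted p = 1.4e-05). Dhcr7, a reductase that acts late on the way to cholesterol, fell from 85.6 to 25.7 CPM and from 100.3 to 31.0 CPM (log2 fold change -1.71 ± 0.11, adjusted p = 1.8e-08). The other 4 that were lower, the demethylase Cyp51, the dehydrogenases Hsd17b7 and Nsdhl and the monooxygenase Msmo1, had log2 fold changes at 8 h from -0.92 ± 0.13 for Cyp51 to -0.24 ± 0.09 for Msmo1. The arm did not move as one, and the isomerase Ebp (-0.07 ± 0.09), the reductase Tm7sf2 (-0.17 ± 0.14) and the desaturase Sc5d (-0.10 ± 0.11 on the log2 scale) were not called. With library totals these 3, Pmvk and Fdft1 were also called lower.

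The control circuit split between the paired Insig genes. Insig1, itself a target of SREBP2, stood at 287 CPM in unstimulated wild-type cells and at 402, 487, 260.4 and 100.5 CPM at 0.5, 1, 3 and 8 h of LPS. In knock-in cells it stood at 341 CPM and then at 728, 1005, 338 and 78.5 CPM. It was highest at 1 h in both genotypes (log2 fold change 1.19 ± 0.25, adjusted p = 0.014) and lowest at 8 h (log2 fold change -1.78 ± 0.27, adjusted p = 9.6e-05). The call at 1 h was lost with no filter on low counts.

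Insig2 moved the other way. Its wild-type level was 29.6 CPM and then 28.7, 36.7, 74.5 and 51.4 CPM, and its knock-in level 34.1 CPM and then 34.3, 39.1, 100.3 and 74.0 CPM. Both genotypes peaked at 3 h (log2 fold change 1.44 ± 0.14, adjusted p = 2.5e-06) and stayed above the unstimulated level at 8 h (log2 fold change 0.96 ± 0.15, adjusted p = 6.0e-05), although with library totals the 8 h change was -0.01. Per kilobase, the ratio of Insig1 to Insig2, in which library scaling cancels, went from 10.9 in unstimulated wild-type cells to 14.9 at 1 h, 3.93 at 3 h and 2.2 at 8 h. In knock-in cells the ratio was 11.2 before stimulation, 28.9 at 1 h, 3.79 at 3 h and 1.19 at 8 h. It was below its unstimulated value at 3 and 8 h of LPS in both genotypes.

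Srebf2 itself changed little, from 279 to 344 CPM at 3 h and 246 CPM at 8 h in wild-type and from 325 to 390.4 and 252 CPM in knock-in cells. It was higher at 3 h (log2 fold change 0.28 ± 0.08, adjusted p = 0.012) and lower at 8 h (-0.27 ± 0.08 on the log2 scale), and with library totals the 3 h value was -0.26. The changes at 3 and 8 h were close in size, and Srebf2 is counted as higher over the LPS times by the larger. Scap, the escort, also moved both ways, higher at 3 h (0.32 ± 0.12 on the log2 scale, but -0.21 with library totals) and lower at 8 h (-0.33 ± 0.13 on the log2 scale). It is counted as lower by the larger of these similar changes. The proteases Mbtps1 (-0.55 ± 0.10) and Mbtps2 (-0.51 ± 0.12 on the log2 scale) were lower at 8 h. Tmem97, a sterol-responsive membrane protein, fell from 24.4 to 11.2 CPM in wild-type and from 29.0 to 9.25 CPM in knock-in cells (log2 fold change -1.38 ± 0.18, adjusted p = 1.8e-05).

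**Figure D2:**
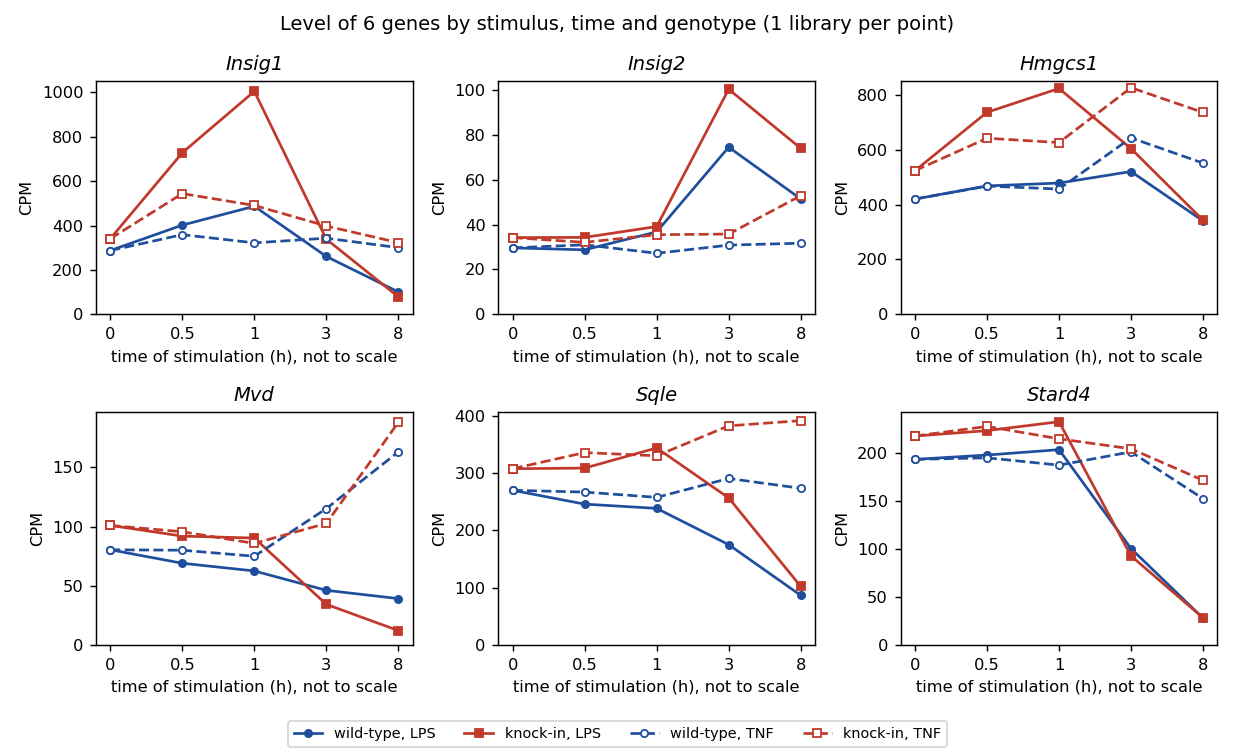
CPM of 6 genes (vertical axis, from 0) against time of stimulation (horizontal axis, not to scale), 1 library per point, for wild-type and knock-in cells given LPS or TNF. Insig1 peaks at 1 h of LPS at 487 CPM (wild-type) and 1005 CPM (knock-in), while Mvd, Sqle and Stard4 are lowest at 8 h of LPS.

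TNF left most of the pathway near its unstimulated level. Over the 4 TNF times 5 members were higher, against 17.6% of all genes, 1 was lower, against 14.5%, and 21 were not called. At 3 h 2 members were higher (Hmgcs1 and Srebf2), against 8.16% of all genes. At 8 h 7 were higher, against 17.8% of all genes, and 1 was lower, against 15.6%, and the members' median log2 fold change was 0.21 against 0 to 2 decimals over all genes. Hmgcs1 stood at 468, 457, 644 and 552 CPM over the TNF times in wild-type and at 642, 626, 827 and 736 CPM in knock-in cells, above the unstimulated 420.4 and 524 CPM at each time (log2 fold change 0.64 ± 0.14, adjusted p = 0.01 at 3 h).

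At 8 h of TNF 5 of the 7 increases were in the sterol arm. The squalene synthase Fdft1, whose counts may include reads of Ctsb, stood at 65.0 and 70.8 CPM at 8 h in wild-type and knock-in cells, against 43.6 and 51.0 CPM before (log2 fold change 0.53 ± 0.12, adjusted p = 0.0037). The desaturase Sc5d stood at 151 and 209 CPM, against 116 and 141 CPM (log2 fold change 0.47 ± 0.11, adjusted p = 0.0049). Msmo1 (0.38 ± 0.09), Nsdhl (0.33 ± 0.10) and Hsd17b7 (0.42 ± 0.14 on the log2 scale) were also higher at 8 h. Mvd reached 163 CPM (wild-type) and 188 CPM (knock-in), its highest levels of all libraries of each genotype (log2 fold change 0.96 ± 0.32, adjusted p = 0.043), in a call lost under 7 alternatives. Stard4 was the member that fell, from 193 to 152 CPM and from 218 to 172 CPM (log2 fold change -0.34 ± 0.09, adjusted p = 0.0097).

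These TNF increases rest on the scaling: with library totals 0 members were higher and 3 lower over the TNF times, beside 1220 higher and 2837 lower of the 10438 genes. Among all calls in either direction, the higher ones went from 54.8% to 30.1%. Over the TNF times 0 members were called in either direction without the 8 h pair of TNF, and 3 were higher without the 0.5 h pair of LPS. Hmgcs1 also lost its call over the TNF times once the 3 h TNF knock-in library was dropped. The Srebf2 call at 3 h was lost under 7 alternatives.

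**Figure D3:**
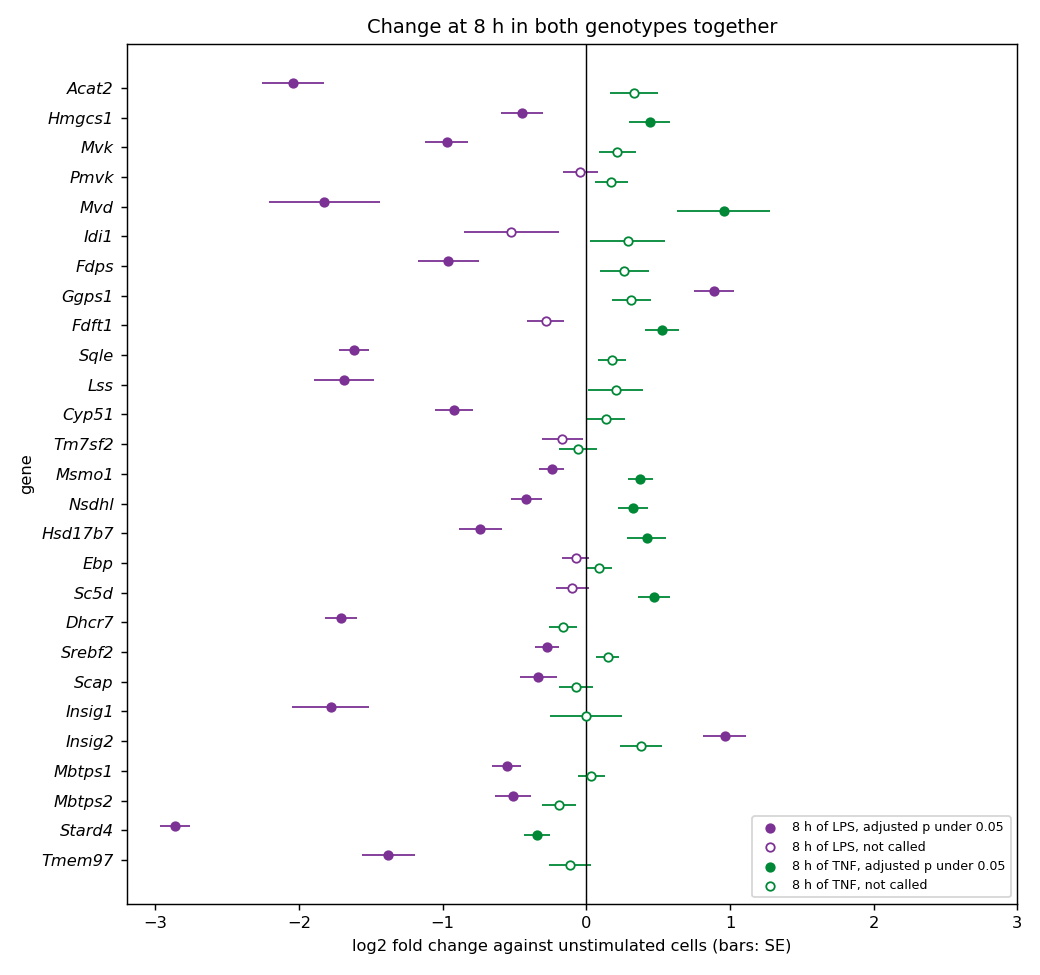
Log2 fold change at 8 h against unstimulated cells for the 27 genes, both genotypes together, with bars of 1 SE, filled where the adjusted p was under 0.05. LPS values run down to -2.86 for Stard4, while TNF values lie between -0.34 for Stard4 and 0.96 for Mvd.

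LPS and TNF were compared at matched times, which leaves out the unstimulated libraries that both responses share. Averaged over the 4 times, 17 members were lower after LPS than after TNF, against 26.2% of all genes, and 2 were higher, against 24.9%. At 0.5 and 1 h edgeR called 0 members in either direction (0 and 2 members had an unadjusted p under 0.05). At 3 h 11 were lower, against 15.2% of all genes, and 1 was higher, against 17%. At 8 h 21 were lower, against 29.8% of all genes, and 2 were higher, against 30.5%.

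The widest separation at 8 h was that of Mvd, with 39.2 and 12.2 CPM after LPS and 163 and 188 CPM after TNF (log2 fold change -2.78 ± 0.38, adjusted p = 0.0001). Stard4 (-2.52 ± 0.10), Acat2 (-2.38 ± 0.21), Lss (-1.89 ± 0.21), Sqle (-1.80 ± 0.10) and Insig1 (-1.78 ± 0.27 on the log2 scale) followed. Insig2 was higher after LPS over the 4 times (log2 fold change 0.56 ± 0.07, adjusted p = 3.8e-05), as was Ggps1 (log2 fold change 0.21 ± 0.07, adjusted p = 0.021). The call for Ggps1 was lost under 7 alternatives, and its value with library totals was -0.10. The 17 lower calls became 24 with library totals (1 higher), 10 when the LPS 8 h pair was left out and 3 when the TNF 8 h pair was. Lower calls over all genes were 6876 of 10438, 1117 of 10468 and 804 of 10471 in these settings. With library totals the higher ones went from 48.7% to 13.4% of all calls in either direction.

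Many members were higher in knock-in than in wild-type libraries. Over the 9 pairs 15 members were higher in the knock-in, against 9.93% of all genes, and 0 were lower, against 8.67% (edgeR, 21 members with an unadjusted p under 0.05 in either direction). The members' median log2 fold change, knock-in minus wild-type, was 0.21, and that of all genes -0.01. With library totals 10 members were higher and 1 (Scap) was lower, beside 651 higher and 1604 lower of the 10438 genes. Higher calls then made up 28.9% of all calls in either direction, against 53.4% with TMM. Scap was also called lower when either the LPS 0.5 h or the TNF 8 h pair was left out. Without the LPS 0.5 h pair 11 members were higher, beside 915 of 10424 genes, and without the LPS 8 h pair 18, beside 1079 of 10468. For 11 members the knock-in library was the higher one in all 9 pairs, which held for 6.88% of all genes.

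In 2 members the 9 knock-in libraries all lay above the 9 wild-type ones, as in 0.46% of all genes. Tm7sf2, a sterol reductase, ranged from 18.1 to 25.2 CPM in wild-type (median 20.8) and from 31.3 to 35.04 CPM in knock-in libraries (median 32.4) (log2 fold change 0.62 ± 0.06, adjusted p = 2.6e-05). Pmvk ranged from 26.9 to 32.8 CPM in wild-type (median 29.7) and from 36.7 to 48.7 CPM in knock-in libraries (median 43.1) (log2 fold change 0.52 ± 0.06, adjusted p = 3.4e-05). With TMM scaling neither stimulus moved these genes past the test's threshold. The exons of Tm7sf2 overlap those of Vps51 over 15.3% of their length.

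The ranges of the other 25 members overlapped between genotypes, and differences were seen within pairs. Sc5d ranged from 96.9 to 150.6 CPM in wild-type (median 111) and from 131 to 209 CPM in knock-in libraries (median 165) (log2 fold change 0.45 ± 0.05, adjusted p = 5.9e-05). Hmgcs1 had medians of 468 CPM in wild-type (341 to 644) and 642 CPM in knock-in libraries (343 to 827) (log2 fold change 0.41 ± 0.07, adjusted p = 0.001). Sqle had medians of 257 CPM in wild-type (86.7 to 290.3) and 329.8 CPM in knock-in libraries (102 to 391) (log2 fold change 0.38 ± 0.05, adjusted p = 8.6e-05). All 3 were higher in the knock-in library of each of the 9 pairs, as was Msmo1 (0.35 ± 0.04 on the log2 scale). Insig1 was higher in 8 of 9 pairs (log2 fold change 0.43 ± 0.12, adjusted p = 0.03), in a call lost with library totals, with no filter and without any of 5 single pairs. Srebf2 (0.21 ± 0.04) and Insig2 (0.32 ± 0.07 on the log2 scale) were each higher in 9 of 9 pairs.

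**Figure D4:**
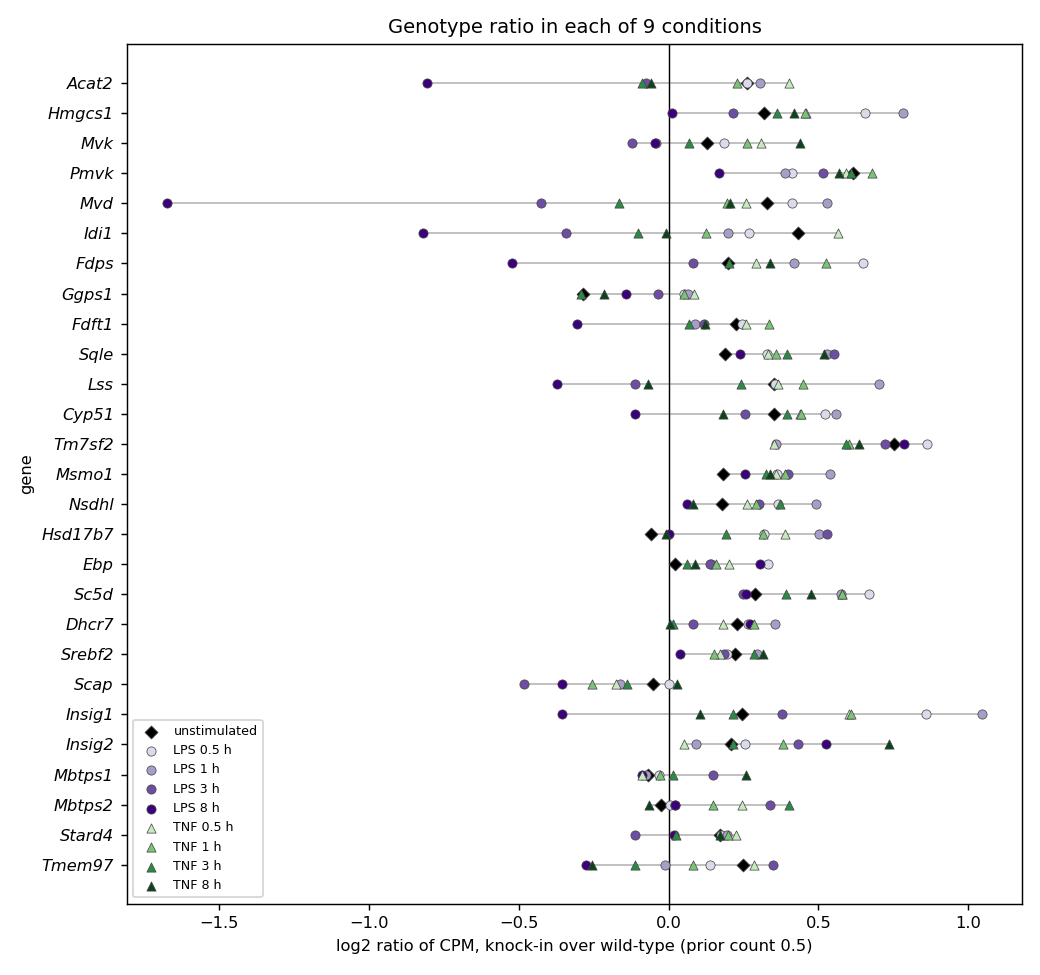
Log2 ratio of CPM, knock-in over wild-type, for each gene (rows) in the 9 conditions (points), with a line from the lowest to the highest. Tm7sf2 and Pmvk are among the 11 genes that lie right of 0 in every condition, and the 8 h LPS points of Mvd, Idi1 and Acat2 lie farthest to the left.

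Markers of other cells differed with genotype and stimulus as well. All 6 neutrophil markers that could be tested were lower in the knock-in (median log2 fold change -0.86), and the list of 8 summed to 170 to 349 CPM in wild-type and 81.2 to 243 CPM in knock-in libraries. Both testable stromal markers were lower (median -1.69), and the list of 7, with Lum at 0, summed to 98.9 to 196.5 CPM in wild-type and 13.7 to 72.2 CPM in knock-in libraries. Il7r, the only 1 of 7 lymphocyte markers that could be tested, was higher in the knock-in (0.62 ± 0.07) and after LPS (1.05 ± 0.15 on the log2 scale). Of the neutrophil markers 4 of 6 were higher over the LPS times and 5 of 6 higher after LPS than after TNF, as were both stromal markers. The part of these cells in the members' differences was not tested. Of the 9 macrophage markers 4 were higher and 2 lower in the knock-in, against 9.93% and 8.67% of all genes. Rela stood at 62.5 and 67.2 CPM in unstimulated wild-type and knock-in cells, and since gene counts do not show a changed coding sequence, these values are no check of the labels.

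The members' genotype ratios had their highest medians at 0.5 and 1 h of LPS and a median near 0 at 8 h. The members' median log2 ratio, knock-in over wild-type, was 0.22 before stimulation (22 of 27 higher), 0.32 and 0.35 at 0.5 and 1 h of LPS (26 and 23 higher), 0.18 at 3 h (19 higher) and 0 to 2 decimals at 8 h (13 higher). After TNF it was 0.29, 0.29, 0.20 and 0.17 at the 4 times (25, 25, 21 and 20 of 27 higher). Over all genes the medians lay between -0.013 and 0.005. Between 48.1% and 51.1% of all genes were higher in the knock-in, with 49.5% at 8 h of LPS. At 0.5 and 1 h of both stimuli together 13 members were higher in the knock-in, against 3.21% of all genes, and 5 of the 13 calls were lost without the LPS 1 h pair. At 3 and 8 h 8 were higher, against 9.32%. Over the LPS times 8 members were higher, against 5.1% of all genes, and over the TNF times 5, against 2.33%.

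Mvd and Insig1 had the widest ranges of the genotype ratio over conditions. For Insig1 the log2 ratio, knock-in over wild-type, was 0.25 before stimulation and 0.86, 1.04, 0.38 and -0.36 over the LPS times, and 0.60, 0.61, 0.21 and 0.10 over the TNF times. Mvd went from 0.53 at 1 h to -1.67 at 8 h of LPS, where the knock-in library had 41 reads. The ratios of these genes were thus lower at 8 h than at 1 h of LPS.

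The difference itself was not called. For the genotype effect late (3 and 8 h) minus early (0.5 and 1 h), edgeR called 0 of 27 members, against 0.431% of all genes in either direction, and 7 members had an unadjusted p under 0.05. Insig1 had the lowest adjusted p (log2 fold change -0.67 ± 0.15, adjusted p = 0.12) and was called with DESeq2 and with no filter. Lss (log2 fold change -0.52 ± 0.13, adjusted p = 0.14) was called with no filter and when the 3 h TNF pair, or its knock-in library alone, was left out. For the effect after LPS minus that after TNF, 0 members were called by edgeR and 0 had an unadjusted p under 0.05, and 0 of all genes were called (505 under 0.05).

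Genes that neighbour the pathway were read from 4 lists, by the same tests as the members. Of all genes, 36.4% were higher and 37.9% lower after LPS, 17.6% and 14.5% after TNF, and 9.93% and 8.67% in the knock-in. The fatty acid genes, targets of the sister factor SREBP1, had 0 higher and 9 lower of 11 tested after LPS, led by the elongase Elovl6 (-4.80 ± 0.26 on the log2 scale at 8 h) and the fatty acid synthase Fasn (-4.01 ± 0.33). Fasn stood at 367 CPM (wild-type) and 528 CPM (knock-in) before stimulation and at 34.9 and 19.4 CPM at 8 h of LPS. After TNF 2 of the 11 were higher and 3 lower. In the knock-in 7 were higher and 1 lower, led by the desaturases Scd2 (log2 fold change 1.14 ± 0.05, adjusted p = 1.7e-08) and Fads2 (log2 fold change 1.11 ± 0.04, adjusted p = 8.4e-09).

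Genes of sterol storage, export and oxysterols had 5 higher and 3 lower of 10 tested after LPS, against 36.4% and 37.9% of all genes, 4 higher and 0 lower after TNF and 3 higher and 0 lower in the knock-in. Abcg1, which exports cholesterol, stood at 91.8 CPM (wild-type) and 207 CPM (knock-in) before stimulation and at 572 and 1672 CPM at 8 h of LPS (log2 fold change 2.84 ± 0.13, adjusted p = 1.8e-10). In the knock-in it was higher across pairs (log2 fold change 1.13 ± 0.06, adjusted p = 6.1e-08), as was the exporter Abca1 (0.88 ± 0.16 on the log2 scale). The LXR-alpha gene Nr1h3 rose after LPS (3.21 ± 0.17) and after TNF (2.75 ± 0.16, both at 8 h on the log2 scale), while Soat1, which esterifies cholesterol, fell after LPS (-0.64 ± 0.10 at 8 h). Mylip was lower at 3 h of LPS (-1.11 ± 0.30) and higher at 8 h (1.04 ± 0.28 on the log2 scale), and is counted as lower by its largest change.

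Among factors that act on SREBP processing, 5 were higher and 1 lower of 10 tested after LPS, against 36.4% and 37.9% of all genes. The ubiquitin ligases Rnf139 (2.13 ± 0.11) and Rnf145 (1.19 ± 0.19, both at 8 h on the log2 scale) were higher, and the deubiquitinase Usp20 was lower (-0.97 ± 0.18 at 3 h). After TNF 2 were higher, and in the knock-in 1 was lower. The users of isoprenoids had 3 higher and 4 lower of 14 after LPS, both shares below those of all genes, with Pdss1 (1.19 ± 0.21) and the prenyltransferase subunit Pggt1b (1.07 ± 0.10) higher and Fntb (-0.87 ± 0.26 on the log2 scale) lower, and edgeR called 0 of them after TNF or by genotype.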

How the data were processed

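Per the labels' protocols, poly(A) libraries were made with a KAPA stranded kit and sequenced as 50-base single ends. Raw gene counts with mm10 coordinates were deposited by the authors, 1 column per library. Per the submitters' processing notes the tools were cutadapt 1.12, STAR, featureCounts 1.5.0 and DESeq2; the annotation release and strand setting were not given in the sources used. Among the 45706 genes, 24529 had no count in any library, and 563 lacked a symbol.

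Tests used edgeR 4.0.16 under R 4.3.3 (robust quasi-likelihood, TMM, Benjamini-Hochberg over all genes, threshold 0.05). The filterByExpr filter by genotype (minimum count 10, total 15) left 10438 genes, and the common biological coefficient of variation was 0.11. Condition entered as a block with genotype (8 residual degrees of freedom), or with a genotype effect per stimulus or phase (6). Standard errors were worked back by dividing the absolute change by the square root of F and are approximate. Pair ratios used a prior count of 0.5. The fits of the main comparisons were tested on simulated data. Exon overlaps and shared 50-base stretches came from GENCODE transcripts on GRCm38, the assembly of mm10.

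Alternatives were DESeq2 size factors, library totals, no filter, 1 CPM in 9 libraries, DESeq2 1.42.0, limma-voom (limma 3.58.1), leaving out each pair, and leaving out the 3 h TNF library of the knock-in, which stood apart in earlier results. The members, lists and tests were chosen with earlier results of these data known. In each comparison up to 6 members with the largest called change in each direction are given in full, and up to 2 genes of a neighbouring list.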

Additional observations from a re-analysis of the deposited data

How the results depend on the processing

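No paired analysis beyond the condition block was possible because the labels give no replicate numbers. With library totals the median log2 fold change of all genes was -1.01 at 8 h of LPS, -0.257 at 8 h of TNF, -0.331 for LPS against TNF and -0.0768 for genotype. This scaling left 1 member higher after LPS, 0 higher and 3 lower after TNF, 0 higher at 8 h of TNF, 1 higher after LPS than TNF and 1 lower in the knock-in. Under it Ggps1 stood at -0.0726 after LPS, -0.0981 for LPS against TNF and -0.1295 at 8 h of that comparison, Insig2 at -0.00763 at 8 h of LPS and -0.1305 against TNF at 8 h, Srebf2 at -0.2555 and Scap at -0.2132 at 3 h of LPS. With no filter 2 members were higher after LPS, 3 higher after TNF, 1 higher after LPS than TNF and 2 differed late against early. DESeq2 gave 1 for each of the last 2 of these, as did dropping the 3 h TNF library of the knock-in.

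Leaving out single pairs gave 7 to 19 members lower and 3 to 7 higher after LPS, and 0 to 1 lower and 0 to 7 higher after TNF. For LPS against TNF it gave 3 to 19 lower and 1 to 2 higher. In the knock-in it gave 0 to 1 lower and 11 to 18 higher, and 0 to 1 differed late against early. Without the 8 h pair of LPS 7 members were lower and 7 higher after LPS, and without that of TNF 0 were called after TNF and 3 were lower after LPS than TNF. For members and named neighbouring genes, 3637 values kept direction and side of the threshold, 162 lost a call, 48 gained one and 9 changed sign, all 9 with library totals. Responses have no value without the unstimulated pair, nor a time without its own pair. Depth limits Idi1 most, with 8 to 44 reads per library.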

Other observations

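Ch25h makes an oxysterol that restrains SREBP2 processing. It did not pass the filter on low counts, and it is named after its values were seen. Wild-type libraries held 2 reads before stimulation and 5, 23, 48 and 132 reads at 0.5, 1, 3 and 8 h of LPS, or 43.5 CPM at 8 h. Knock-in libraries held 2 reads before stimulation and 0, 3, 77 and 109 reads at the same times, or 32.5 CPM at 8 h. After TNF the highest count was 23 reads for wild-type and 10 for knock-in cells, both at 8 h. Ch25h was thus highest at 8 h of LPS in both genotypes, and a link between it and the members' levels was not tested.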
